A study of Mus musculus with 10 samples.

Results

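The STAT transcription factors and the JAK kinases were examined as a group of 9 genes (Stat2, Stat3, Stat4, Stat5a, Stat5b, Stat6, Jak1, Jak2 and Tyk2), taken by symbol from the 26146 genes of the deposited count table. All 9 passed the filter on low counts, which left 14165 genes for testing. RNA had been sequenced in bulk from hematopoietic stem cells (HSCs) sorted from the bone marrow of individual mice as lineage-negative, Sca-1+, c-Kit+ (LSK) CD48-CD150+ cells. The comparison asked how the HSC transcriptome differs when Cited2, a transcriptional co-regulator that binds CBP and p300, is missing. Controls (Cited2 CTL, 5 libraries) carried floxed Cited2 alleles (Cited2 fl/fl) without a Cre and are labelled wildtype. The other group (Cited2 CKO, 5 libraries) was Cited2 fl/fl;Vav-iCre, in which Cre acts throughout the hematopoietic lineages from soon after HSCs emerge, so that a loss in the sorted cell and a loss earlier in the lineage cannot be told apart. All mice were C57BL/6J and aged 8 to 12 weeks, and each library came from 1 mouse.

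JAK kinases sit on the inner tails of cytokine receptors. When a cytokine brings receptor chains together, the JAKs phosphorylate each other and the receptor, STAT proteins dock there, are phosphorylated, pair up and enter the nucleus to switch on target genes. STAT5 is activated through Jak2 by several hematopoietic cytokines, STAT3 follows gp130 (Il6st) cytokines and interleukin 10, and type I interferon acts through Jak1 and Tyk2 on a complex that holds STAT2 and IRF9. Much of this regulation takes place on the proteins by phosphorylation, which RNA counts do not measure. In bulk RNA, a smaller number of cells carrying a transcript and less transcript per cell cannot be told apart.

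The libraries held between 3058690 and 4548795 counts. The 9 genes took between 0.153% and 0.192% of them. Cited2 itself lay between 101 and 222 CPM (counts relative to the library's total over the tested genes, with TMM scaling) in CTL and between 3.80 and 8.30 CPM in 4 CKO libraries, but at 120.1 CPM in the library labelled CKO 3, which lies inside the CTL range. The targeted gene therefore goes against the label of that library, and fold changes of the 9 genes and counts of the pathway lists are given below with and without it. CKO 3 was the lowest CKO library for 7 of the 9 genes and the lowest of all 10 for 4 of them. All 12 HSC marker genes were detected, with summed levels of 2458 to 2746 CPM in CTL and 2228 to 2520 CPM in CKO. The 6 T cell markers summed to at most 12.5 CPM, the defining B cell genes Cd79a and Pax5 were each at no more than 2.41 CPM, and the summed 7 myeloid markers ranged from 53.2 to 401 CPM in CTL and from 93.9 to 253 CPM in CKO, highest in CTL 5. Ly6g was at 0 in every library. The summed erythroid, megakaryocyte and cycling genes overlapped between genotypes (134 to 229, 529 to 647 and 1404.5 to 1622 CPM in CTL, 168 to 197, 522 to 659 and 1368 to 1748 CPM in CKO). Sums can hide single genes. The cycling list had 6 genes higher and 2 lower in CKO. Ccnb1 among them was 72.6 to 89.4 CPM in CTL and 95.1 to 125 CPM in CKO, without overlap. Among 6 tested myeloid markers (2 higher, 4 lower) the log2 fold change of Itgam was 0.95. The 5 multipotent progenitor markers (2 higher, 3 lower) summed to 626 to 726 CPM in CTL and 595 to 660 CPM in CKO. Flt3 among them was at -0.36 on the log2 scale, and Ccnb1, Itgam and Flt3 were not called. Cd48 mRNA, whose protein the sorting gate excludes, was 14.4 to 27.4 CPM in CTL and 38.5 to 60.8 CPM in CKO without overlap. Unlike Ccnb1, Itgam and Flt3, Cd48 was called, both with all 10 libraries and without CKO 3. With all libraries its change was 1.18 on the log2 scale, and edgeR's quasi-likelihood test gave an adjusted p of 0.0264. The part of these differences in the results below was not tested.

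None of the 9 genes differed between Cited2 CTL and Cited2 CKO HSCs at an adjusted p under 0.05 with a fold change above 20% (edgeR's quasi-likelihood F test, adjusted by Benjamini and Hochberg's method over all 14165 genes). Over the same fit 32 genes, or 0.226% of those tested, were called, and next to that share a count of 0 of 9 does not set the members apart. DESeq2, limma-voom and every other setting that was run also called 0 of the 9. Stat3 alone, 1 of the 9, had an unadjusted p under 0.05 and a lower mean in CKO, in edgeR, DESeq2 and limma-voom alike, and with an offset for GC content and length in the edgeR fit no member did. Such a p was found for 12.9% of all tested genes, made up of 5.8% with a higher and 7.08% with a lower mean in CKO. No member had CTL and CKO values that were free of overlap, against 3.33% of all tested genes.

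The means pointed both ways. Among the 6 STAT genes only Stat4 had a higher mean in CKO and 5 had a lower one, and among the kinases Jak1 and Jak2 had a higher and Tyk2 a lower mean. The median log2 fold change of the 9 was -0.10, next to 0.01 over all tested genes, and the median size of the change, without its sign, was 0.17 in both. Without CKO 3 the median of the 9 was -0.03, again with 3 genes higher and 6 lower and 0 called. The members are well covered genes: the least abundant of them stood above 63.2% of tested genes in CTL, and their median standard error on the log2 scale was 0.09, next to 0.17 over all tested genes. The 95% confidence intervals of the 9 fold changes ran from 0.626 at the low end of Tyk2 to 1.50 at the high end of Jak2, and a change within a gene's own interval can be neither shown nor dismissed with these libraries.

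**Figure D1:**
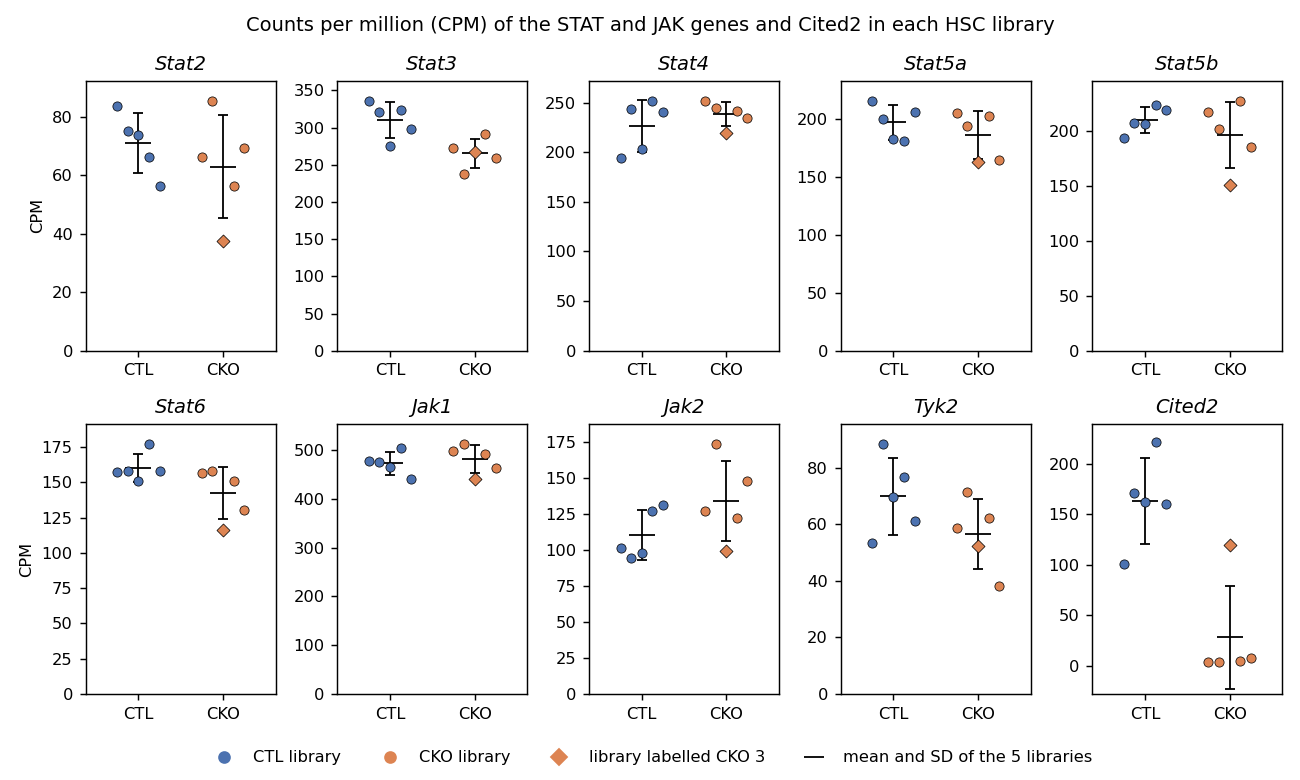
CPM of each STAT and JAK gene and of Cited2 (vertical axes, each starting at 0 except for Cited2, whose SD reaches below 0) in the 5 CTL and 5 CKO libraries. Circles and diamonds are single libraries, the diamond is the library labelled CKO 3, and bars are mean and SD over all 5 libraries. The genotypes overlap for every STAT and JAK gene, with 4 of 5 CKO libraries below every control for Stat3, and CKO 3 sits lowest in CKO for 7 of the 9.

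Levels can be set side by side between genes only per gene length, here as RPKM, the CPM divided by the deposited gene length in kilobases. In CTL the mean order was Jak1 (89.3 ± 4.28 RPKM, SD, n = 5), Stat4 (76.0 ± 8.72), Stat3 (69.2 ± 5.39), Stat5a (50.6 ± 3.81), Stat6 (42.1 ± 2.59), Stat5b (38.5 ± 2.21), Jak2 (21.9 ± 3.44), Stat2 (16.2 ± 2.34) and Tyk2 (14.3 ± 2.78). The 6 most abundant genes thus comprised a kinase that serves many cytokine receptors and 5 STATs, and the other two kinases were far lower. Of the 8 neighbouring pairs in this order, 3 were separated in CTL without overlap of their RPKM, which are Stat3 over Stat5a, Stat5a over Stat6 and Stat5b over Jak2. The other 5 pairs overlapped. The order holds for the deposited lengths only. For Stat3 that length is 4487 bases, while its longest annotated transcript has 6042, which would give a lower RPKM. Its separation from Stat5a was not tested with another length. Stat4 was above Stat3 in 4 of 5 CTL libraries and in 5 of 5 CKO libraries, Stat6 was above Stat5b in 5 and 4, and Stat2 above Tyk2 in 3 and 4. Jak1 made up 71.1% ± 2.30 of the summed RPKM of the 3 kinases in CTL and 70.6% ± 2.61 in CKO (SD, n = 5 each), and this share overlapped between genotypes.

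**Figure D2:**
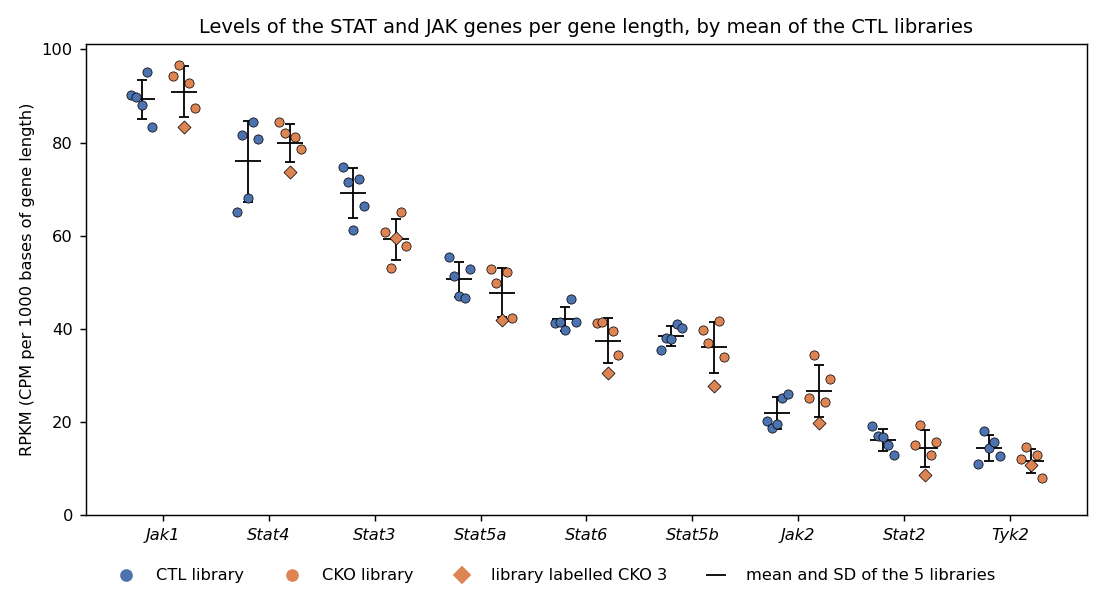
RPKM (vertical axis, from 0) of the 9 genes ordered by their CTL mean, with single libraries as points, the library labelled CKO 3 as a diamond, and mean and SD over 5 libraries as bars. Jak1 leads at 89.3 RPKM in CTL and Tyk2 is last at 14.3 RPKM, and the step from Stat5b to Jak2 is free of overlap.

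Stat3 encodes the factor that answers gp130 cytokines and interleukin 10. It lies on chr11:100885098-100939540 (GRCm38, minus strand). Its CPM in the CTL libraries 1 to 5 was 336, 321, 275, 323 and 298, and in the CKO libraries 273, 238, 267, 292 and 259. In 4 of the 5 CKO libraries it lay below every CTL library, and CKO 4 reached above the lowest control, CTL 3. The mean was 311 ± 24.2 CPM in CTL and 266 ± 19.6 CPM in CKO (SD, n = 5 each), or a fold change on the log2 scale of -0.22 (SE 0.07), with an adjusted p of 0.229 in edgeR's quasi-likelihood test and p = 0.0159 when its CPM alone was compared by an exact permutation test (two-sided), where 0.00794 is the smallest that 5 against 5 libraries can give. That permutation p is 1 of 10 computed, for the 9 members and Cited2, and was not adjusted. Over the alternative settings the log2 fold change ran from -0.27 to -0.15 and the adjusted p from 0.0913 (DESeq2) to 0.873 (with a GC and length offset). Leaving out CKO 3 changed the log2 fold change only to -0.23. Stat3 overlaps the 3′ end of Stat5a on the opposite strand by 72 exon bases, and whether counting used strand is not stated.

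Stat5a and Stat5b encode the pair of factors that Jak2 activates downstream of many hematopoietic cytokines. Stat5a had 215, 199.5, 183, 181 and 206 CPM in the CTL libraries 1 to 5 and 205, 194, 163, 203 and 164 CPM in the CKO libraries. CKO 3 and CKO 5 lay below every control and the other three lay inside the CTL range. On the log2 scale the fold change was -0.08 (SE 0.09, adjusted p = 0.729, edgeR's quasi-likelihood test). Stat5b had 193, 207, 206, 224 and 218 CPM in CTL and 217, 201, 150.3, 227 and 185 CPM in CKO. CKO 3 was far below the rest, CKO 5 was also below all controls, and CKO 4 was above them. The log2 fold change of Stat5b was -0.10 (SE 0.10, adjusted p = 0.726, same test), and without CKO 3 it was -0.02 (adjusted p = 0.963), next to a range of adjusted p from 0.496 to 0.988 over all settings. For Stat5a the value without CKO 3 was -0.04 (adjusted p = 0.895), and with the GC and length offset its sign turned, to 0.09.

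The share of Stat5a in the counts of the pair is free of library scaling. It was 52.7%, 49.1%, 47.0%, 44.7% and 48.5% in CTL and 48.6%, 49.1%, 52.0%, 47.2% and 47.0% in CKO. The genotypes overlapped along nearly the whole range, and the means were 48.4% ± 2.96 and 48.8% ± 2.03 (SD, n = 5 each). Exact 95% binomial limits were 49.9% to 55.6% for the highest library (CTL 1) and 42.3% to 47.1% for the lowest (CTL 4). These limits cover counting error only.

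The partners lie back to back on chromosome 11, Stat5b at chr11:100780731-100850724 on the minus strand and Stat5a at chr11:100859351-100885169 on the plus strand, 8.6 kb apart with 0 annotated genes between them. Their coding sequences share an identical run of 324 bases. Of the 85-base windows of the longest transcript, the length of the reads, 8.65% in Stat5a and 6.41% in Stat5b occur in the other gene, where a read cannot be given to one of them, and how such reads were counted is not stated. The sequences below, from the GENCODE transcripts (GRCm38), show the edge of that run, with the last base that differs in capitals, 90 bases into each stretch. The Stat5a stretch is spliced from chr11:100865436-100874082 and the Stat5b stretch from chr11:100798642-100801476 on the minus strand.
Stat5a: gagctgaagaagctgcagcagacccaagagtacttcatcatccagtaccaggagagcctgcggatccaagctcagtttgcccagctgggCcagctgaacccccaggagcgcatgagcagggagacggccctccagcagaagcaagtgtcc
Stat5b: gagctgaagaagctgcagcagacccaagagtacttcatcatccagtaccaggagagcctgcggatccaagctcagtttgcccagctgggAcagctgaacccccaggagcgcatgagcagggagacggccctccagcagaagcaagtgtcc
Apart from the capital, the printed stretches are the same, so that counts of either gene in this region depend on how reads that match both were treated.

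Stat4, which in lymphocytes carries interleukin 12 signals, had the highest mean RPKM of the STATs in these HSCs. It lies at chr1:51987148-52107189 (plus strand). Its CPM was 194, 243, 203, 252 and 241 in CTL and 251, 245, 219.6, 242 and 234 in CKO. The 2 lowest values were controls, CTL 1 and CTL 3, and all CKO values lay inside the CTL range. The log2 fold change was 0.07 (SE 0.08, adjusted p = 0.760, edgeR's quasi-likelihood test). It was 0.10 without CKO 3 and -0.02 with the GC and length offset. T cell markers were low, with Cd3d, Cd3e and Cd3g at no more than 1.73 CPM in any library. Cd5 reached 2.41 CPM (CTL 5), Cd8a 3.09 CPM (CKO 1) and Cd4 9.69 CPM (CKO 3). The part of T cells in the Stat4 counts was not tested. An annotated transcript on the same strand, Gm28177, shares 1033 exon bases with Stat4 and was not analysed here.

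Stat6 carries interleukin 4 and 13 signals. It lies at chr10:127642986-127660957 (plus strand). It had 157, 158, 151, 177 and 158 CPM in CTL and 157, 158, 116, 151 and 130.4 CPM in CKO. CKO 3 and CKO 5 lay below every control and CKO 4 was level with the lowest one, and none exceeded the CTL mean. On the log2 scale the fold change was -0.17 (SE 0.09, adjusted p = 0.473, edgeR's quasi-likelihood test), and -0.11 without CKO 3. Stat2 stands 609.6 kb away on the same chromosome and strand, at chr10:128270559-128292849, with 40 annotated genes between the pair.

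Stat2, the interferon-specific member, had 83.6, 75.0, 73.8, 66.3 and 56.2 CPM in CTL and 66.3, 85.3, 37.3, 56.4 and 69.1 CPM in CKO. CKO 3 was the lowest of all 10 libraries, CKO 2 was the highest of them, and the other three lay inside the CTL range. The log2 fold change was -0.17 (SE 0.18, adjusted p = 0.745, edgeR's quasi-likelihood test). Without CKO 3 it was -0.03, with CKO at 69.3 ± 12.0 CPM (SD, n = 4) next to 71.0 ± 10.3 CPM in CTL (SD, n = 5), and without CKO 2 it was -0.31. The value of Stat2 thus turned on single CKO libraries more than that of the other STATs.

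The promoter windows of the 9 genes (RefSeq, GRCm38.p6, 250 bases before to 50 after the start, 12 windows for all 9 genes) were searched for an interferon-response-like element, GAAA, any 2 bases and GAAA, on either strand. It was found in 2 of the 12 windows, or 16.7%, next to 3.44% of the 32851 windows of all genes, and these belonged to Stat2 and to the second start of Stat4. They are shown because STAT2 complexes bind elements of this form, with the match in capitals and 25 bases on either side, at chr10:128270251-128270310 for Stat2 (222 bases before the start, matched on the minus strand) and chr1:52008118-52008177 for Stat4 (97 bases before the start), both printed on the plus strand.
Stat2: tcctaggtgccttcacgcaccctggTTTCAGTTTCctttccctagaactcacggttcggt
Stat4: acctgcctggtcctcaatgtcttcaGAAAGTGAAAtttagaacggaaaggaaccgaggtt
The element bound by STAT dimers, TTCNNNGAA, was in 0 of the 12 windows, next to 8.3% of all windows. The search describes letters in these windows and nothing about binding.

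Jak1, the kinase shared by interferon, gp130 and common gamma chain receptors, was the least variable member in CTL (coefficient of variation 4.79%). It lies at chr4:101152367-101265282 (minus strand). Its CPM was 478, 476, 466, 504 and 441 in CTL and 499, 513, 442, 492 and 464 in CKO. The ranges were nearly the same, with CKO 2 alone above every control. The mean was 473 ± 22.7 CPM in CTL and 482 ± 28.8 CPM in CKO (SD, n = 5 each), or a fold change on the log2 scale of 0.03 (SE 0.06, adjusted p = 0.894, edgeR's quasi-likelihood test), whose 95% interval spans folds from 0.93 to 1.12. It was 0.06 without CKO 3. This near-zero value changed sign with the GC and length offset (-0.06) and without CTL 5 (-0.00091).

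Jak2 is the kinase of the erythropoietin and interleukin 3 receptors. It lies at chr19:29251828-29313080 (plus strand). It had 101, 94.5, 97.9, 127 and 131 CPM in CTL and 127, 173, 99.3, 122 and 147 CPM in CKO. CKO 2 and CKO 5 stood above every control, CKO 1 and CKO 4 near the 2 higher controls, and CKO 3 among the 3 lower ones. The mean was 110.3 ± 17.3 CPM in CTL and 134 ± 28.0 CPM in CKO (SD, n = 5 each), or a fold change on the log2 scale of 0.27 (SE 0.14, adjusted p = 0.446, edgeR's quasi-likelihood test). Without CKO 3 it was 0.36 (SE 0.13, unadjusted p = 0.0157, adjusted p = 0.288, same test), over settings whose adjusted p ran from 0.288 to 0.946, and with the GC and length offset it was 0.15. Jak2 has the lowest GC content of the 9 genes, 44.3%.

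Tyk2, the kinase that pairs with Jak1 at the type I interferon receptor and with Jak2 at the interleukin 12 receptor, was the least abundant member and lies at chr9:21104068-21131243 (minus strand). It had 53.5, 88.4, 69.7, 76.8 and 61.3 CPM in CTL and 58.7, 71.5, 52.2, 62.3 and 38.3 CPM in CKO. CKO 5 and CKO 3 lay below every control and the rest inside the CTL range. On the log2 scale the fold change was -0.31 (SE 0.17, adjusted p = 0.479, edgeR's quasi-likelihood test), which became -0.28 without CKO 3 and -0.12 with the GC and length offset. Tyk2 has the highest GC content of the 9 genes, 57.0%, and shares 554 exon bases with an antisense transcript, 1700084C06Rik, that was not analysed here.

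Jak2 and Tyk2, the members with the lowest and the highest GC content, thus also had the highest and the lowest fold change. An offset that takes out the relation of counts to GC content and length in each library moved all 9 values towards 0 or across it. With it the log2 fold changes of the 9 lay between -0.16 (Stat3) and 0.15 (Jak2), and those of Stat4, Stat5a and Jak1 changed sign. The share of GC content in these differences was not tested beyond this offset.

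**Figure D3:**
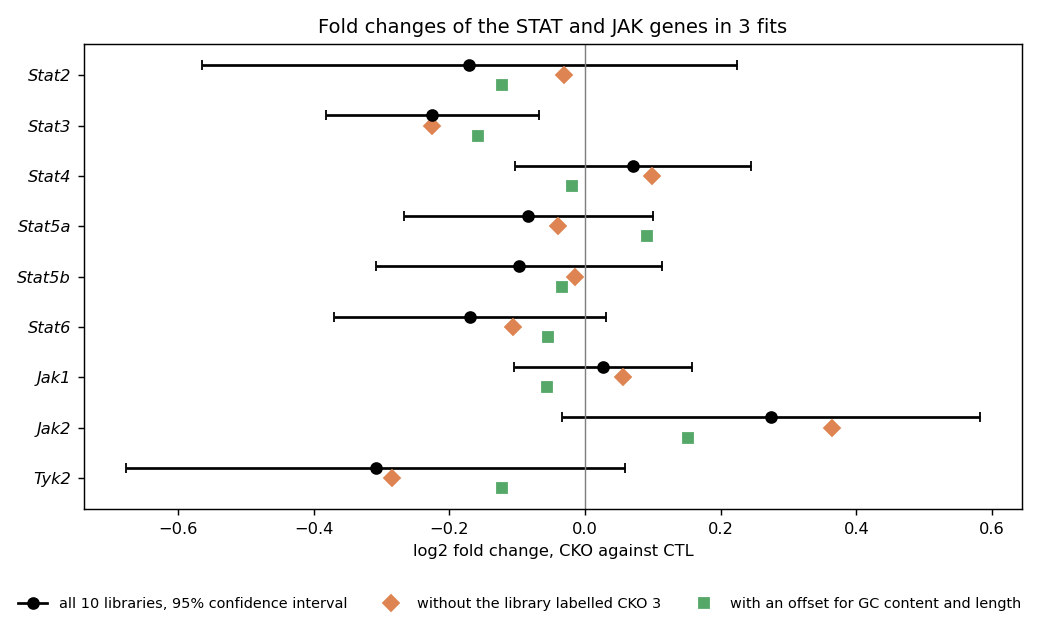
Log2 fold change of each gene, CKO against CTL (horizontal axis), from edgeR with all 10 libraries (black circles with 95% confidence intervals), without the library labelled CKO 3 (orange diamonds) and with a GC and length offset (green squares). Only the interval of Stat3 leaves out 0, and the offset moves all 9 towards 0 or across it.

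A ratio of the counts of 2 members within a library does not depend on how libraries are scaled, and so describes the balance among them. Of the 36 pairs, 3 had ratios that did not overlap between the genotypes over all 10 libraries, next to 3.15% of all pairs of the 13282 tested genes with counts in every library. Without CKO 3 the count was also 3. Pairs free of overlap must stay so when a library is left out, so this shows only that no pair was added. The 36 pairs share their 9 genes and are not separate observations. The first was Stat3 to Stat4, whose RPKM ratio was 1.15, 0.88, 0.90, 0.85 and 0.82 in the CTL libraries 1 to 5 and 0.72, 0.65, 0.81, 0.80 and 0.74 in the CKO libraries. Every CKO library, CKO 3 included, lay below every control, though the gap between CTL 5 and CKO 3 was small. The mean log2 count ratio of Stat4 to Stat6 was 0.50 ± 0.13 in CTL and 0.75 ± 0.12 in CKO (SD, n = 5 each), with the highest control at 0.62 and the lowest CKO library at 0.63. That of Stat6 to Jak1 was -1.56 ± 0.06 and -1.77 ± 0.11, with the lowest control at -1.63 and the highest CKO library at -1.67. These 3 pairs were picked from 36 by their lack of overlap and carry no test, and GC content differs within each pair.

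The widest mean difference, 0.58 on the log2 scale, was between Jak2 and Tyk2, whose genotypes did overlap. The count ratio of Jak2 to Tyk2 was 1.63 ± 0.42 in CTL and 2.46 ± 0.81 in CKO (SD, n = 5 each). It ran from 1.07 to 2.14 in CTL and from 1.90 to 3.86 in CKO, highest in CKO 5. Of the summed RPKM of the kinases, Jak2 made up 17.5% ± 2.57 in CTL and 20.5% ± 2.91 in CKO, and Tyk2 11.4% ± 1.96 and 8.96% ± 1.53. Both shares overlapped between genotypes.

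**Figure D4:**
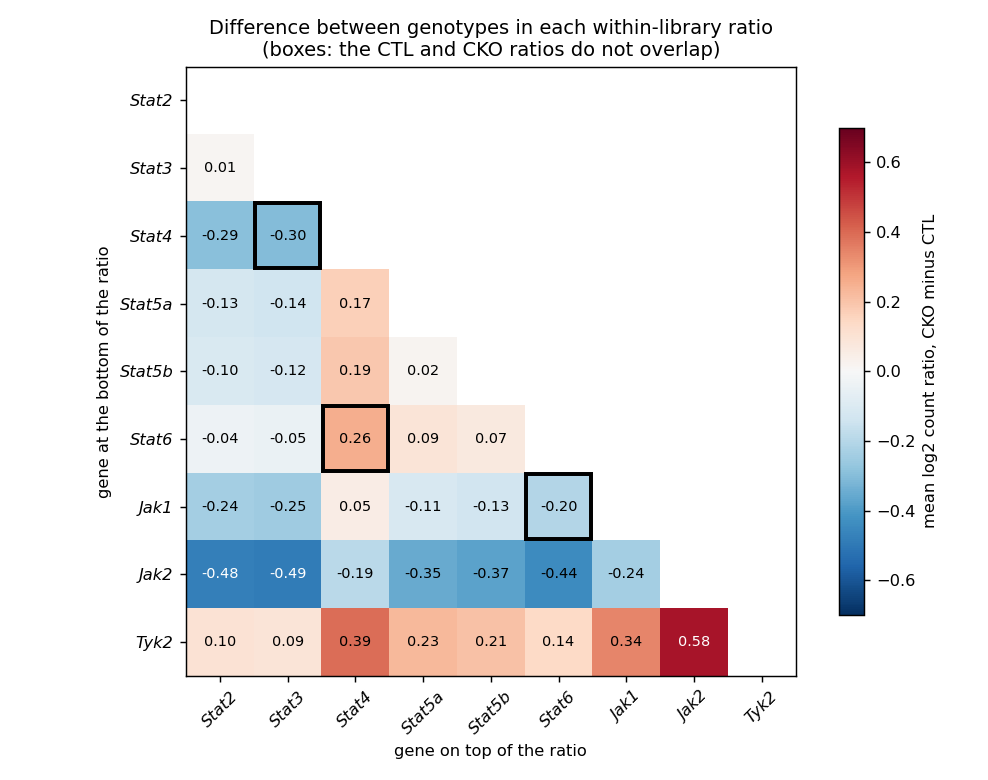
Mean log2 ratio of the counts of 2 genes in the same library, CKO minus CTL, for the 36 pairs of STAT and JAK genes (colour and number). The gene on the horizontal axis is on top of the ratio and the gene on the vertical axis at the bottom, and boxes mark the 3 pairs whose CTL and CKO ratios did not overlap. The column of Jak2 over Tyk2 holds the widest difference, 0.58, without a box.

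The rest of the pathway was described with lists of receptors, inhibitors and targets, 90 genes in all of which 86 were tested. The 1 gene called was Ccnd1, in the list of STAT3 targets. Over all 14165 tested genes 32, or 0.226%, were called in the same fit. Next to that share, a count of 0 called in a list does not set that list apart. Cyclin D1, its product, drives the step from G1 into S phase, and the gene is regulated by many factors besides STAT3. It had 75.9, 70.7, 58.8, 80.9 and 61.0 CPM in CTL and 94.8, 100.2, 104, 140.2 and 122 CPM in CKO. All CKO libraries lay above all controls, and the log2 fold change was 0.69 (SE 0.13, adjusted p = 0.0456, edgeR's quasi-likelihood test). The call was lost when any 1 of the 10 libraries was left out (adjusted p = 0.0521 without CKO 3), with limma-voom and with the GC and length offset (adjusted p = 0.179), while DESeq2 gave an adjusted p of 0.000359. Of the other 11 tested STAT3 targets 6 had a higher and 5 a lower mean in CKO, among them Myc at -0.26 (adjusted p = 0.293) and Socs3, the classical feedback inhibitor, at 0.01 on the log2 scale, neither called. The median of the list was 0.06, next to 0.01 over all tested genes, and without CKO 3 it was 0.04, with 6 genes higher and 6 lower.

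Upstream, 32 of 36 receptor genes were tested, 21 with a higher and 11 with a lower mean in CKO and 0 called, with a median log2 fold change of 0.13. Without CKO 3 these were 22 and 10, with 1 called (Il10ra) and a median of 0.11. Over all 14372 genes tested in that fit 42 were called. Il11ra1, the interleukin 11 receptor that signals through gp130, was free of overlap at 66.5 to 86.3 CPM in CTL and 52.8 to 60.6 CPM in CKO (log2 fold change -0.43, adjusted p = 0.108 in edgeR). Il10ra, the interleukin 10 receptor, was 5.88 to 12.5 CPM in CTL and 25.6 to 38.1 CPM in 4 CKO libraries, with CKO 3 at 8.75 CPM inside the control range. Its log2 fold change was 1.66 (adjusted p = 0.0781), and without CKO 3 it was 1.89 and called (adjusted p = 0.00584). As for Cited2, CKO 3 stood with the controls for Il10ra. For genes free of overlap, such as Il11ra1, Ccnd1 and Cd48, CKO 3 lay with the other CKO libraries (52.9, 104 and 38.5 CPM). Il11ra1 and Il10ra were called by DESeq2 (adjusted p 0.0168 for Il11ra1 and 0.00215 for Il10ra) and not with the GC and length offset (0.792 and 0.179).

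Among the 20 inhibitors 10 had a higher and 10 a lower mean and 0 were called, and without CKO 3 11 were higher, 9 lower and 0 called, so that the median moved from -0.0036 to 0.04. Cish, an early STAT5 target and feedback inhibitor, had 99.7, 127, 135, 106 and 130.4 CPM in CTL and 83.0, 79.7, 80.6, 65.9 and 116 CPM in CKO. It lay below every control in 4 of the 5 CKO libraries, and CKO 5 lay inside the CTL range. The log2 fold change was -0.49 (SE 0.14, adjusted p = 0.158, edgeR's quasi-likelihood test), and the adjusted p was 0.0486 in DESeq2 and 0.741 with the offset. The phosphatase gene Ptpn2 was at 0.24 and Socs7 at 0.66 on the log2 scale (adjusted p = 0.231 and 0.254), both without a call. Of the 11 STAT5 targets 6 were higher and 5 lower with a median of 0.01 and 0 called. Without CKO 3 the direction of that median turned, to -0.04, with 4 higher, 7 lower and 0 called. Among them Mcl1, a survival gene of HSCs, was at 0.36 (adjusted p = 0.321) and Pim2, a kinase gene, at 0.28 (adjusted p = 0.565).

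Downstream of Stat2, 18 of the 20 STAT2-IRF9 targets had a higher and 2 a lower mean in CKO, with 0 called and a median log2 fold change of 0.15. An unadjusted p under 0.05 with a higher mean was found for 3 of them, Mx2, Xaf1 and Oas2 (log2 fold changes 0.58, 0.37 and 0.52, adjusted p 0.265, 0.276 and 0.291), beside 5.8% over all tested genes. The summed CPM of the list was 1538, 1922, 1418, 2126 and 1631 in CTL and 2053, 2072, 1481, 1859 and 2049.7 in CKO. The genotypes overlapped: the highest sum was that of a control, CTL 4, and CKO 3 was the lowest in CKO, as it was for Stat2. Without CKO 3 the median was 0.27, next to 0.00051 over all tested genes, with 18 higher and 0 called. In that fit 5 of the 20 had an unadjusted p under 0.05 and a higher mean, beside 5.19% of all genes tested. Irf9, the partner of STAT2, had a lower mean (-0.13, adjusted p = 0.614). The genes of this list respond together to interferon and are not separate evidence of one another.

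**Figure D5:**
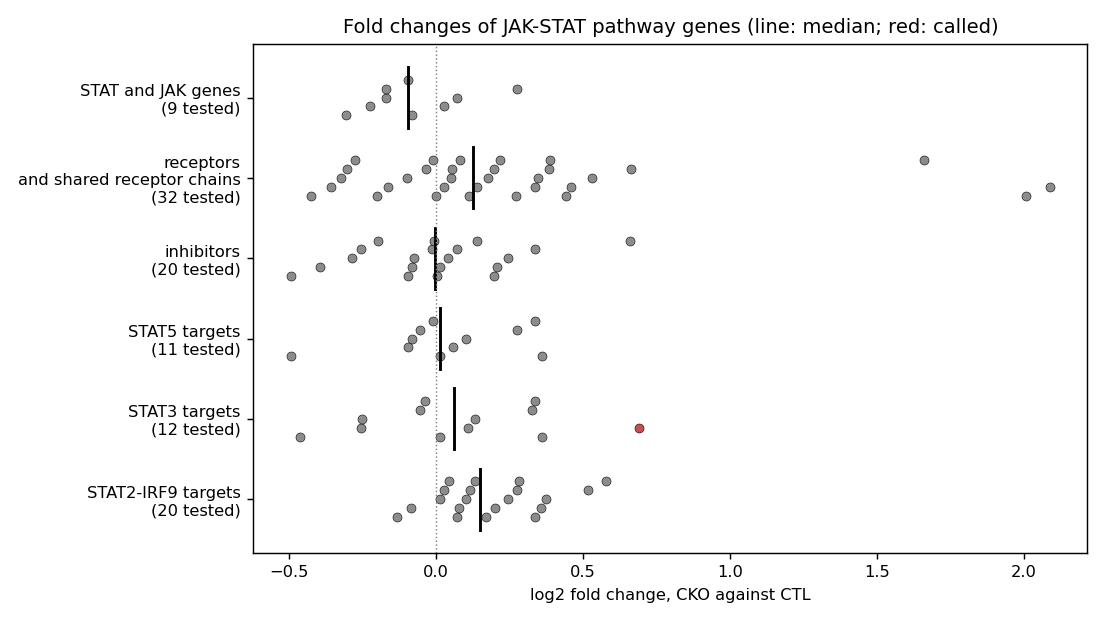
Log2 fold change, CKO against CTL (horizontal axis), of each tested STAT and JAK gene and of each tested gene in the 5 pathway lists, with list medians as lines and the called gene, Ccnd1, in red. Points are shifted vertically only for visibility, and a gene in several lists is drawn in each. The medians lie between -0.10 and 0.15, and the STAT2-IRF9 targets sit mostly above 0.

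For each member the 2 tested genes with the most similar profile of log2 CPM over the 10 libraries were Axl and Acot11 for Stat2, Auh and Hes6 for Stat3, Ppp3ca and Grb2 for Stat4, and Thnsl2 and Pcdhb19 for Stat5a. They were Tax1bp3 and Grk4 for Stat5b, Zfp708 and Cerk for Stat6, Cdk5rap1 and Zfp97 for Jak1, Itga6 and Rtn4 for Jak2, and Tmc8 and Rmnd5b for Tyk2. Pearson's r of these pairs ran from 0.90 (Zfp97 with Jak1) to 0.96 (Tax1bp3 with Stat5b). All points come from the same libraries and share their depth and base composition, and these values are the highest among 14165 genes over 10 points and are given as a description.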

How the data were processed

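Poly(A) RNA of HSCs was sequenced in bulk from 10 mice, 5 of each genotype, and groups were taken from the labels. The authors aligned single-ended 85-base reads to GRCm38 with HISAT2 and counted reads per gene with Rsubread. The deposited values are raw counts per gene symbol, with gene lengths in a second table. Strand use and how duplicates and reads with several matches were handled are not given in the sources used here. The members and lists were chosen with earlier results of these data known.

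Genes were filtered with filterByExpr, normalized by TMM and fitted with edgeR (4.0.16, R 4.3.3) by a robust quasi-likelihood test. A gene was called at a Benjamini-Hochberg adjusted p under 0.05 and a fold change above 20%. CPM of single genes were compared by two-sided exact permutation tests, and binomial limits (95%) are exact. With 5 libraries a group, p-values measure the spread between mice. Alternatives were DESeq2 (1.42.0), its size factors, 2 other filters, limma-voom (3.58.1), the replicate number as a block, a loess offset per library for GC content and length (GENCODE annotation, GRCm38) and leaving out each library. Scripts were tested on simulated data. No 2 libraries agreed within sampling noise. Named genes are Cited2, all members, called pathway genes, the 3 pathway genes of each list with the smallest p, and the 2 genes most similar to each member; some genes under this rule are not reported here. Irf9, Socs3 and the marker genes named, and the 3 pairs of ratios, were added after their values were seen.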

Additional observations from a re-analysis of the deposited data

Results flagged for a closer look

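In 44 groups of 5 libraries (22 genes in both genotypes) 2 held a single library far from the others by Dixon's criterion, which chance meets in about 1 of 20 groups. Cited2 was at 120.1 CPM in CKO 3, with the next CKO library at 8.30 CPM. Stat6 was at 177 CPM in CTL 4, with the next control at 158 CPM.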

How the results depend on the processing

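The count of 0 of the 9 STAT and JAK genes called was the same under all 18 alternatives. All genes called numbered 32, and 338 with DESeq2 (all 32 among them), 7 with the offset for GC content and length, 12 with the offset and the replicate block, and 8 to 42 with a library left out (10 to 16 without CTL 1, 2, 3 or 4, 14 without CKO 1 or CKO 5, and 8 without CKO 2). Besides Stat3, an unadjusted p under 0.05 was reached by Jak2 without CTL 5 or CKO 3, by Tyk2 with the replicate block and without CTL 1 or CKO 2, and by Stat6 without CKO 2, and by no member with the offset. The pathway genes called numbered 1, and 5 with DESeq2 (Il11ra1, Il10ra, Cish and Ccnd1 among them), 0 with limma-voom, the replicate block, the offset or both, and 0 to 1 with a library left out. The cause of these differences was not tested. With the offset, and with the offset and replicate block, the log2 fold change reversed for Stat4 (-0.020 and -0.019), Stat5a (0.091 and 0.092) and Jak1 (-0.056 and -0.061), and for Jak1 also without CTL replicate 5 (-0.00091), in a range of -0.00091 to 0.056 with a library left out. Stat2, Stat3, Stat5b, Stat6, Jak2 and Tyk2 kept their direction throughout. Cited2 passed the threshold with limma-voom (log2 fold change -3.99) and without CKO replicate 3 (-4.92), and not in edgeR with all libraries (-2.51, adjusted p = 0.328). With the replicate number as a block 24 genes were called. The deviations of samples that share a number had correlations of 0.01, -0.01, -0.00064, -0.03 and 0.18 for replicates 1 to 5. Only for replicate 5 was the own number the closest (0.18, next to 0.02 for the largest other). Whether the numbers pair the mice is not stated in the labels, and low correlations cannot exclude it.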
